A study of Mus musculus with 16 samples.

Results

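mTEC-III is 1 of 4 sorted populations of mouse medullary thymic epithelial cells (mTEC) in which dimethylation of histone H3 at lysine 4 (H3K4me2) was profiled by chromatin immunoprecipitation and sequencing. The strongest and widest H3K4me2 regions of this population alone are described here, by level and rank. Its members are the 19321 peaks of the deposited mTEC-III list, of which 19320 were used after 1 mitochondrial peak was left out, and the values of both mTEC-III libraries in the 29470 non-mitochondrial peaks of a merged table that covers all populations. The series holds 16 samples, 8 of H3K4me2 (2 per population) and 8 of whole-cell extract that are not analysed here.

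All cells came from thymi of C57BL/6 mice, of an age that the labels do not give, and every sort kept Epcam-positive cells that lacked CD45. Ly6D marked mTEC-III. High MHC class II marked mTEC-II. The remaining sorts both had low MHC class II: mTEC-I carried Itgb4, while mTEC-IV lacked Itgb4 and carried L1cam. No treatment or genotype differs between the populations. The labels do not say whether replicates came from separate mice or pools, so the p-values below speak only of how far these libraries scatter, and that scatter may be technical.

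H3K4me2 lies at the promoters and enhancers of genes that are active or ready to be activated. Broad domains of H3K4 methylation often cover genes that define a cell's identity. Medullary thymic epithelial cells display proteins of other tissues to developing T cells, and some of them go on to a late stage that resembles the keratinising upper layers of skin. That stage is known for proteins of the cornified envelope, the cross-linked shell of dead skin cells.

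The mTEC-III libraries held 7926040 and 8492030 tags, within the 1702100 to 15412100 of all 8 H3K4me2 libraries. Of these tags 32.2% and 34.3% lay in the merged peaks. A level is given as tags per 10000000 tags of the library, so that 1 tag was worth 1.26 and 1.18 units. A count of 0 allows up to 3 tags, which is 3.78 and 3.53 units, for counting error only. The shallowest library was mTEC-I replicate 2, with 1702100 tags and 5.88 units per tag. It had no tag at 1474 merged peaks, against 5 to 191 peaks in the other libraries. The fit described below weights it like any other library. A merged peak or a gene has a value in each replicate, while a peak of the list has 1 level, the authors' value for both replicates combined. For a gene, the values of all merged peaks are added up that the authors' annotation assigns to its start site, the nearest one, so a peak may lie inside another gene. An intron, exon or intergenic place given with a peak is that of its centre, and a wide peak may reach beyond it.

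The promoter stretches shown first belong to transcription factors and to skin-type genes whose start sites were covered by mTEC-III peaks described below. The choice took genes that have an entry in RefSeq's promoter table (GRCm38.p6) and a merged peak across the start site. Spink5, the cornified epithelium gene of highest summed level, was left out of the choice. Of the remaining genes, the 2 epithelial transcription factors and the 4 cornified epithelium genes of highest summed level are shown. Each stretch is the 250 bases before an annotated start, 5′ to 3′ on the gene's strand. RefSeq gives 2 promoters each for Tfap2a and Serpinb2, of which the upstream one is shown. Whether the peak covers the start shown was not checked for any gene. Capitals mark matches on either strand to an AP-1 motif (TGANTCA), a Grainyhead motif (AACNNGTT), a GC box (GGGCGG) or a TATA box (TATAAA), and no match overlaps a match to another of these motifs. Klf4 lies at chr4:55532476-55532725 on the minus strand, Tfap2a at chr13:40734921-40735170 (minus), Tchh at chr3:93442080-93442329 (plus), Krt10 at chr11:99389365-99389614 (minus), Asprv1 at chr6:86627924-86628173 (plus) and Serpinb2 at chr1:107511173-107511422 (plus). These coordinates are of GRCm38.p6, while all peak coordinates below are of mm9, and no coordinate was carried from one to the other.
Klf4: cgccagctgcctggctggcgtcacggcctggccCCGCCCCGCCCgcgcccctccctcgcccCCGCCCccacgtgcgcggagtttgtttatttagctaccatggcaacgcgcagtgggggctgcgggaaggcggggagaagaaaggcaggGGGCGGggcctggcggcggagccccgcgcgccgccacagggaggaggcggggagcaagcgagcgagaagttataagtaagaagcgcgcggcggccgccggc
Tfap2a: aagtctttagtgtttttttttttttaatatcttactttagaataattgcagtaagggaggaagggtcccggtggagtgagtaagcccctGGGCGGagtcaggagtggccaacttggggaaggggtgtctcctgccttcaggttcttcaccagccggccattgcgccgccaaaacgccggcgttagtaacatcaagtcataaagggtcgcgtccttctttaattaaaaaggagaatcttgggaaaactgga
Tchh: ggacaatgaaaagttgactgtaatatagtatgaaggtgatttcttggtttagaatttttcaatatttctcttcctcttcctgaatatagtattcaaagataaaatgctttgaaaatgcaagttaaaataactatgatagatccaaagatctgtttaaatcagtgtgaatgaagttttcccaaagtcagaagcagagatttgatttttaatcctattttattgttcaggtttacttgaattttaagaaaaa
Krt10: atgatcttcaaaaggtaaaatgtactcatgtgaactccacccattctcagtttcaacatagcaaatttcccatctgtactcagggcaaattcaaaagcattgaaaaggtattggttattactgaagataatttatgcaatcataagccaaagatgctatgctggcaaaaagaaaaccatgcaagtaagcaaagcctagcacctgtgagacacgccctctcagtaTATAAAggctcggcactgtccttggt
Asprv1: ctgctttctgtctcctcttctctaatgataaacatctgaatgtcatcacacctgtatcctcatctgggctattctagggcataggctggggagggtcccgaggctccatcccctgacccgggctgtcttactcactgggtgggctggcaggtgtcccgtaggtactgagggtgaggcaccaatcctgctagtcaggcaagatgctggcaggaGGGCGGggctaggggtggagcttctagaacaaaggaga
Serpinb2: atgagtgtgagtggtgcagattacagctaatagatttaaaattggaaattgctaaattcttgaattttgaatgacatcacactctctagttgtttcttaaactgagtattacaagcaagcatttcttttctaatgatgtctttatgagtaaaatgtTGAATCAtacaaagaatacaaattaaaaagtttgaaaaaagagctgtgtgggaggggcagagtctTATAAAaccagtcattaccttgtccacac

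The Klf4 stretch held 32 CpG dinucleotides at a GC content of 74.0% and 4 GC boxes, of which 2 share a base. The Tfap2a stretch held 10 CpG and 1 GC box. The cornified epithelium genes had fewer CpG: 4 in Asprv1, 2 in Krt10 and 0 in Tchh and Serpinb2, against a median of 6 over 32851 RefSeq promoters of the same length. Krt10 and Serpinb2 each held 1 TATA box, which 12.4% of all these promoters hold. Serpinb2 also held 1 AP-1 motif, found in 6.75% of all promoters, and Asprv1 held 1 GC box, found in 32.7%. No stretch held the Grainyhead motif (3.64% of all promoters), which says only that these letters are not in this window. Shares over whole gene sets are void, because promoters were matched for 34 of 45 cornified epithelium genes (75.6%), 16 of 32 epithelial transcription factors and 76 of the 99 genes of the 100 strongest peaks (76.8%), under the 80% needed.

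Mature microRNAs of epithelial loci with strong mTEC-III peaks are shown with the seed, bases 2 to 8, in capitals, since the seed decides which messenger RNAs a microRNA pairs with. The sequences are from RefSeq.
mmu-miR-200b-3p: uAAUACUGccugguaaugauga
mmu-miR-200c-3p: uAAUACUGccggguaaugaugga
mmu-miR-205-5p: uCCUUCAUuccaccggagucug
mmu-miR-203-3p: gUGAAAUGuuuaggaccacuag
mmu-miR-34a-5p: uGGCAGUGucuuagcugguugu
The miR-200b and miR-200c strands share the seed AAUACUG and come from different chromosomes. The Mir200b locus, whose family holds cells in the epithelial state, had 1 merged peak of 8485 bases with 458 in replicate 1 and 509 in replicate 2, rank 322 of all merged peaks. Mir200c had 373 and 367 (rank 898). Mir203, a microRNA known from differentiating skin, had 377 and 456 over 8837 bases (rank 575). The strongest Mir205 peak had 266 and 288 (rank 2255). Mir34a summed to 445 and 486 over 3 intergenic peaks. The strongest Mir34a peak, with 312 and 330 (rank 1455), was centred 18753 bases from its start. All these loci stood above the gene median of 173, and Mir200c, Mir203 and Mir205 were chosen after their values were seen.

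The label of the population was checked on its markers. Ly6d, the surface protein of the sort gate, had a single peak of 4757 bases at chr15:74590911-74595667, centred in its first intron, with 315 and 351 in the 2 replicates. The other 6 libraries lay between 69.2 and 114, so the groups did not overlap (log2 difference from the mean of the other 3 populations 1.86 ± 0.15 SE, limma adjusted p = 5.0e-07). Spink5, a protease inhibitor of the upper skin layers, had 573 and 551 against 52.0 to 118 (2.62 ± 0.11 SE, limma adjusted p = 2.2e-09). Tgm1, the enzyme that cross-links the cornified envelope, had 271 and 260.2 against 41.2 to 118 (1.86 ± 0.14 SE, limma adjusted p = 2.6e-07). Over all genes 12.1% were called higher in mTEC-III. Ly6d was also the gene of the sort, so its level checks the gate and is no independent finding. Spink5 and Tgm1 were chosen with earlier results of these data known, so their differences are no independent evidence either. Within mTEC-III these markers were not at the top: among 15739 genes Spink5 ranked 725, Ly6d 2527 and Tgm1 3971, while Epcam, the epithelial adhesion protein used in every sort, ranked 121 with 884 and 1052.

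Ptprc, which encodes the CD45 that all sorts excluded, had 34.1 and 30.03. Of 17 thymocyte genes 6 had a peak, with a median of 87.7, and Cd3e, Cd4, Cd8a, Rag1 and Lck were assigned no peak. The list's sum was 1299 and 1363 in mTEC-III against 1243 to 1762 in the other libraries, and 829 of it came from Bcl11b, a T-cell factor also active in skin. Fibroblast genes had a median of 47.7 (10 of 13 with a peak, sum 505 to 605 against 829 to 1334), endothelial genes 88.6 (10 of 12, sum 1018 to 1096 against 1191 to 1917), and antigen-presenting blood cell genes 40.0 (8 of 15, sum 591 to 623 against 518 to 749). Fewer cells of a type and less mark per cell cannot be told apart in these bulk samples, and the part of other cells in the results below was not tested.

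The strongest merged peak of mTEC-III that spread over a wide domain lay at Meis2, a homeobox transcription factor, with 1137 in replicate 1 and 1327 in replicate 2 over 25772 bases (chr2:115877183-115902954, at the 5′ UTR). Pax9, a paired-box factor of the pharyngeal pouches from which the thymus grows, had 1089 and 1159 (chr12:57789955-57804972, intron 1). Tfap2a, the AP-2 factor of surface epithelium, had 1000.5 and 1005 over 17949 bases (chr13:40819894-40837842). Ehf, an epithelial Ets factor, had 896 and 1026 in its first intron. Of the 20 strongest peaks replicate 2 was the higher one at all but Pisd-ps3 and Cbr3, and the order of neighbours in rank differed between replicates: Pisd-ps3 ranked 3 in replicate 1 and 9 in replicate 2.

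Genes of signalling and chromatin stood among the same peaks. Setd1b, part of a complex that methylates H3K4 itself, had 1069 and 1205 over 13882 bases, centred 3699 bases upstream of its start. Notch2, a receptor for cell-contact signals, had 871 and 893 in intron 1, and Efnb2, a ligand of Eph receptors, 867 and 999.8. Fosl2, a component of AP-1, had 894 and 959 over 12909 bases, and Klf3, a Krüppel-like repressor, 873 and 888. Pcdh7 (1037 and 1057), Tnrc18 (982 and 1059), Sgpp1 (888 and 923), which dephosphorylates sphingosine-1-phosphate, and Abhd17c (999.9 and 1039), which removes palmitate from proteins, completed this group. The peaks at the long noncoding RNA locus Lincppara (1092 and 1185), the uncharacterised 3110039M20Rik (1079 and 1157) and Skint4 (1000.5 and 1105) were centred between genes. Those at 3110039M20Rik (15413 bases) and Skint4 (17199 bases) still spanned the start, 1306 and 1544 bases from their centres. Ranked in the mTEC-III list, where some of these domains are divided, the 20 strongest also held Nfe2l1, a stress regulator of proteasome genes (844, rank 14), Dusp4, a phosphatase of MAP kinases (838, rank 15), Bahcc1 (827, rank 18), Kdm6b, which removes methyl groups from histone H3 lysine 27 (824, rank 19), and 9530052E02Rik (820.4, rank 20).

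**Figure D1:**
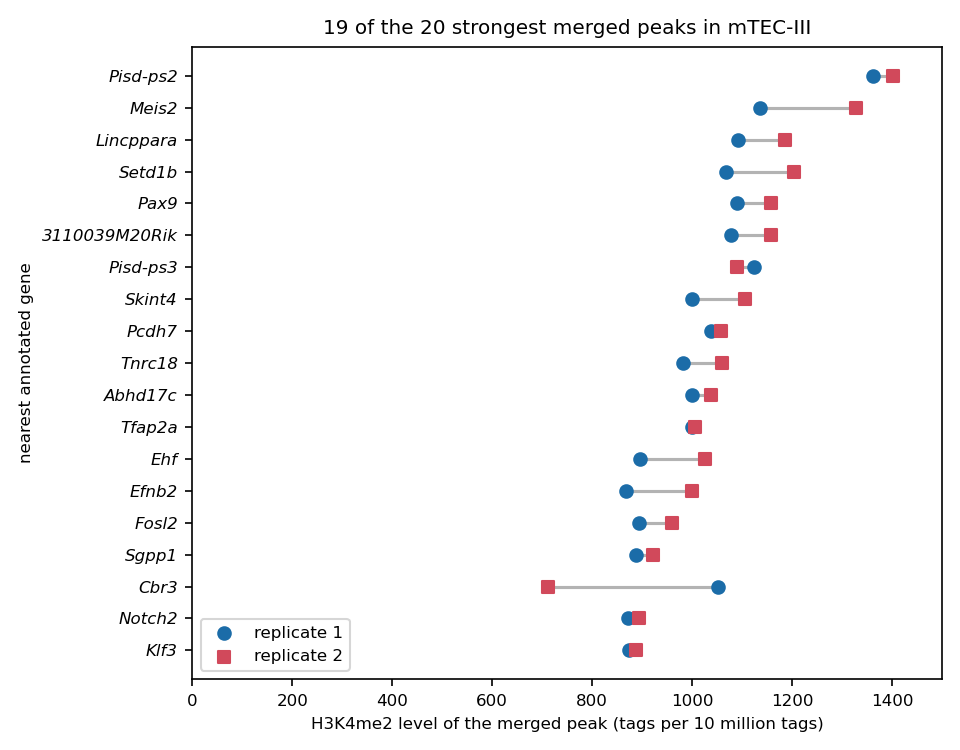
H3K4me2 level (x axis, tags per 10000000 tags) of 19 of the 20 merged peaks of highest mean level in mTEC-III, by nearest annotated gene (y axis), with replicate 1 as circles, replicate 2 as squares and a grey line between them. Replicate 2 is the higher one at 17 of 19 peaks, and Cbr3 shows the widest gap, 1052 against 712.

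The replicates gave nearly the same top. Among the merged peaks 90 were in the top 100 of both replicates, and 18 in the top 20 of both. The SD between replicates had a median of 4.57% of the mean over the top 100. Replicate 2 was higher at 83 of 100, with a median ratio of 1.06, close to the 1.07 over all peaks. The widest gap was at the peak in an intron at Cbr3, 625 bases wide, at 1052 and 712, an SD of 27.2% of its mean. It was also the only one of the 100 with no peak in the mTEC-III list. At the boundary, the peak at Zbtb7a (rank 100) had a mean of 646.02 and that at Pigz (rank 101) 645.94, so no gap in level lies at rank 100.

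Level followed width. Over the 19320 list peaks Spearman's rho between width and level was 0.915 and Pearson's r of the log2 values 0.911, a description over peaks of the same 2 libraries, in which a wide peak collects more tags. The median list peak had a level of 127 over 1977 bases. The 100 strongest had a median width of 9858 bases against 1970 for the rest, but only 73.0 tags per kb against 62.8. They were 0.518% of peaks and held 2.54% of the summed level, and the strongest 1000 (5.18%) held 15.4%. Of the 100 strongest 64 were also among the 100 widest, and of the 20 strongest 10 among the 20 widest.

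The widest list peak, at Abhd17c, covered 18539 bases (chr7:91283835-91302373) and was centred in the first intron, with a level of 1025 (rank 9). Lincppara followed with 17457 bases (chr15:85494418-85511874, level 1117), then Notch2 with 17225 (chr3:97816154-97833378, level 877) and Skint4 with 16811 (chr4:111744320-111761130, level 1056). 3110039M20Rik covered 14597 bases and Ptp4a2, a prenylated phosphatase, 14527. Pcdh1, a protocadherin (13839 bases), Sdc1, the epithelial proteoglycan syndecan-1 (13127), and Jup, the desmosome protein plakoglobin (12945), were also among the 20 widest. Regulators were Sik1, a salt-inducible kinase (13729), Setd1b (13611), Pax9 (13515), Zc3h12a, an RNase that restrains inflammation (13365), Irf2bp2 (12599), Fosl2 (12587) and Fezf2 (12379). Neat1, a nuclear long noncoding RNA, had 12723 bases, and Metrnl (13575), Arf1 (12363) and 2010111I01Rik (12353) completed the 20.

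Only 54 list peaks exceeded 10 kb and 942 exceeded 5 kb. Of the 54, 47 were among the 100 strongest and the other 7 ranked lower. The authors' list divided some domains that the merged table holds as 1 peak. The Meis2 domain held 4 list peaks, the longest of 10087 bases with a level of 718, and the Pdcd4 domain 3, the longest of 7113 bases with 436. Tfap2a and Klf4 each held 2. In all, 290 merged peaks held at least 2 list peaks, 23 of them among the 100 strongest, so a ranking by the list puts these domains lower than the merged table does. The merged table has a bias of its own, because its peaks are unions over 4 populations: the peak at Mctp1 was the fifth widest of all at 19857 bases, but it had 135 and 159 in mTEC-III and 1770.2 on average in mTEC-IV. The widest peaks are therefore ranked in mTEC-III's own list, while widths given with merged peaks, the rank bins included, are those of the unions.

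**Figure D2:**
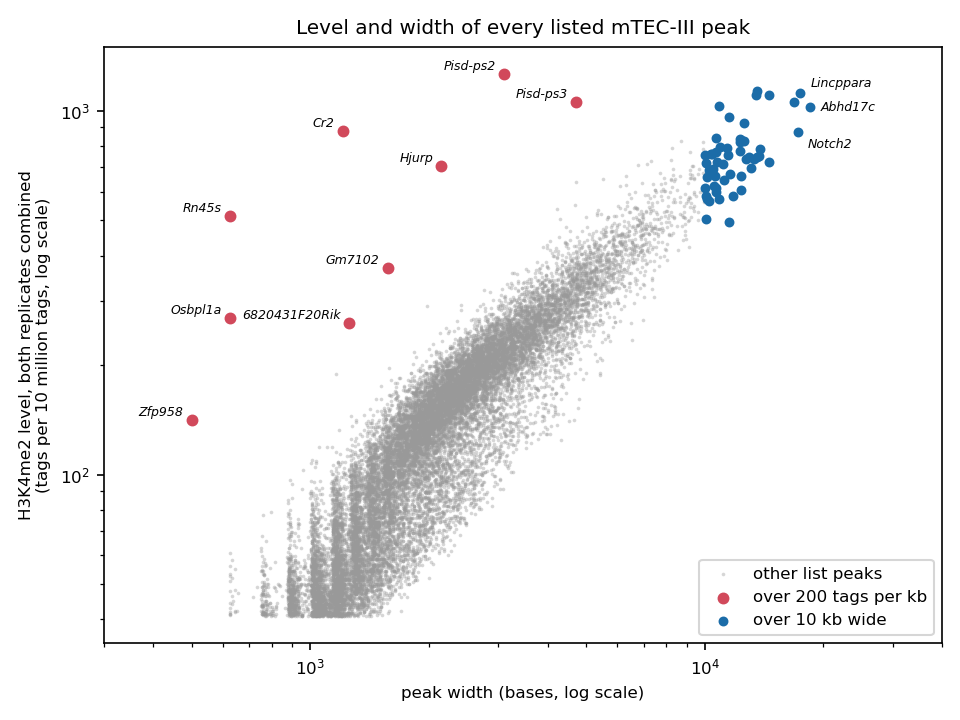
Width (x axis, bases, log scale) and level (y axis, tags per 10000000 tags, both replicates combined, log scale) of all 19320 mTEC-III list peaks. The 54 peaks over 10 kb (blue) lie at the upper end of the main band, and 9 peaks of over 200 tags per kb (red) lie far above it.

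A few peaks had a high level for their width. The highest list level of all, 1262, lay in 3107 bases at Pisd-ps2 (chr17:3082048-3085154), and its copy Pisd-ps3 had 1055 in 4713 bases. Both are pseudogenes of a mitochondrial lipid enzyme. Pisd-ps2 had 1363 and 1401 in the merged table, the top rank of both replicates. A peak of 1209 bases nearest to Cr2, 64839 bases upstream of it, had 880 in the list, and Rn45s, the ribosomal RNA precursor, 513 in 627 bases, which is 818 tags per kb. Besides these 4, Osbpl1a, Hjurp, Zfp958, Gm7102 and 6820431F20Rik exceeded 200 tags per kb, 9 peaks in all, while the median was 62.9. The control tags that the authors list for a peak had a median of 0.5 over all peaks, but 25.5 at Pisd-ps3, the most of any peak, 18.5 at Pisd-ps2, 15.5 at Rn45s and 9 at the Cr2 peak. The authors' fold over control was 5.51, 9.09, 4.41 and 13.02 there, against a median of 17.9. Copies of nearly the same sequence share reads, and the labels and headers do not say how such reads were counted, so these levels are uncertain.

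The strongest peaks covered start sites without being centred on them. Of the 100 strongest merged peaks 95 spanned an annotated start, against 44.8% of all merged peaks, but the centre lay within 1 kb of the start in 24 (38.4% of all), between 1 and 10 kb in 72 (19.9%) and over 10 kb away in 4 (41.7%). In 70 the centre lay downstream. Ranked by level per kilobase instead, 74 of the top 100 were centred within 1 kb and the median width of the top 100 list peaks was 2011 bases. The authors' annotation put 40 of the centres in the first intron (27.6% of all), 11 in an exon (4.57%), 12 between genes (26.5%) and 14 at the promoter (18.2%). Spanning a start was not particular to the strongest 100. In the bins from rank 101 to 5000 the share was 91.2% to 95.2%. It was 83.6% at 5001 to 10000 and 8.19% beyond 20000. Down the ranking the place of the centre changed in steps. The share centred within 1 kb of a start was 24% at ranks 1 to 100, 44.2% at 501 to 1000, 77.3% at 5001 to 10000 and 8.90% beyond 20000, where 71.1% lay over 10 kb away. The median width fell from 11894.5 bases through 6336.5 and 3014 to 1291 in the same bins. Peaks whose centre the authors' annotation placed in a CpG island were 4.00% of the first bin and 13.4% at ranks 2001 to 5000. An island elsewhere in a wide peak is not counted by this.

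**Figure D3:**
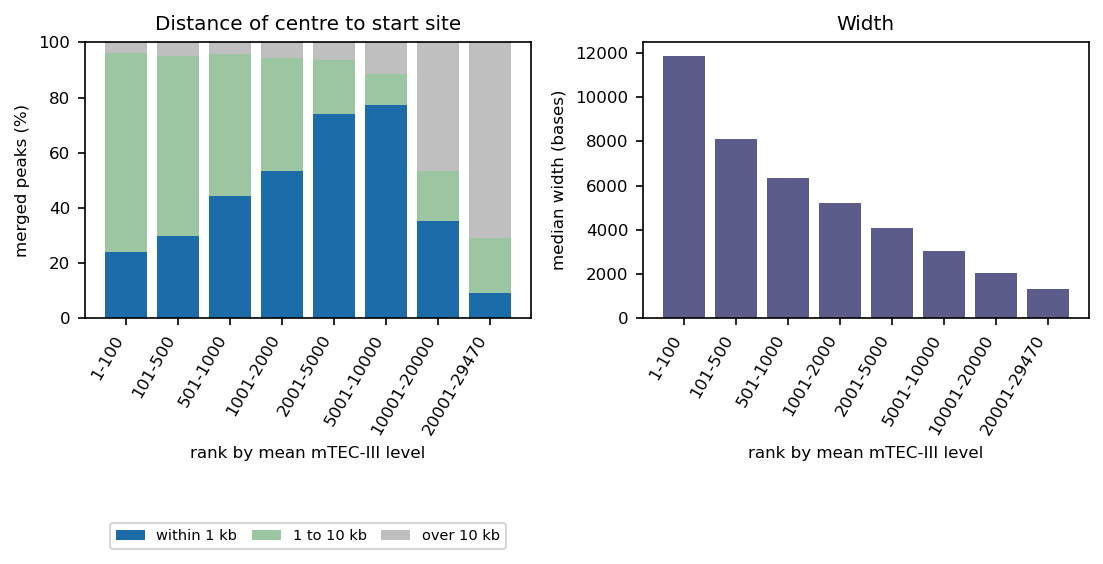
Left, share of merged peaks (y axis, %) by distance of the centre to the annotated start, and right, median width (y axis, bases), in 8 bins of rank by mean mTEC-III level (x axis). The share within 1 kb is highest at ranks 5001 to 10000 (77.3%), while width falls from bin to bin.

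Strong peaks far from any start site were rare. The top one was the Lincppara domain, 30244 bases upstream of that gene's start, and a second Lincppara domain 52084 bases upstream had 803 and 817, so this intergenic region held ranks 4 and 36. The Cr2 peak described above was the second strongest. Zfp541 had 722 and 734 in a peak of 11123 bases, Olfr1423 606 and 645, and Mir7049, in a peak of 11777 bases centred in an intron, 593 and 575. Cbx8 (546 and 599.97), Fat1 (539 and 553), Mir15a (531 and 559) and Irgm1 (534 and 549.9) completed the 10 strongest over 10 kb from a start. These genes are only the nearest ones. An olfactory receptor or Zfp541 is named here for its place, and nothing is known from these files of which gene such a region acts on.

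Summed over 100-kb windows, the strongest stretch was the Hist1 histone gene cluster on chromosome 13 (23600001 to 23700000), with 2576 and 2937 in 9 peaks, against a median of 192 over 12407 windows. The near-identical histone genes make single values there uncertain. Next came the window of Junb and Hook2 on chromosome 8 (2103 and 2233), the Irgm1 window on chromosome 11 (2113 and 2191) and the MHC class II window on chromosome 17 with H2-Aa, H2-Ab1 and H2-Eb1 (1993 and 2234). Nrarp, a feedback target of Notch signalling, lay in the fifth (2019.9 and 2187), and Malat1 and Neat1 in the seventh (1976 and 2123).

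The epidermal differentiation complex on chromosome 3, which holds loricrin, involucrin, filaggrin and the S100 genes, had 28 peaks over 3.04 Mb that summed to 3462 and 3648, or 1168 per Mb. Its only peak among the 1000 strongest was at Tchh, trichohyalin, with 523 and 573 (rank 191). Per Mb the keratin clusters held more: the type II cluster on chromosome 15 had 20 peaks and 3469 per Mb, led by Krt8 (370.3 and 375), and the type I cluster on chromosome 11 had 13 peaks and 2324 per Mb, led by Krt17 (341 and 396). The Skint cluster on chromosome 4, whose genes shape the T cells that live in skin, had 21 peaks that summed to 5088 and 5436, or 2334 per Mb, of which 7 were among the 1000 strongest. Besides Skint4 these included Skint3 (622 and 697), Skint1 (579 and 628) and Skint2 (577 and 564). The Skint genes resemble each other closely, so the split between them is uncertain.

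By summed level the first gene was Nfia, a nuclear factor I gene, with 2274 and 2465 over 23 peaks, against a median of 173 and 1 peak per gene. Fezf2, a zinc finger factor that drives display of tissue proteins in these cells, was second with 1945 and 1998 over 8 peaks, of which 848 came from its own start region and the rest from peaks up to 184584 bases upstream. Lincppara (1912 and 2025), Meis2 (1805 and 2080.2) and Meis1 (1754 and 1905) followed. Smad1, a messenger of BMP signals, had 1729.8 and 1856, Pde4b, which breaks down cyclic AMP, 1688 and 1759.9, and Zfp217 1670.4 and 1726. The next ranks held 1810026B05Rik, Cxxc5, Tank, an adaptor of NF-kappaB signalling (1604 and 1571), Rbm47, Efnb2, Pdcd4, Pax9 (1440.2 and 1539), Arid1b, Pisd-ps2, the adhesion gene Pvrl1, Notch2 (1392 and 1361) and Maml3, a coactivator of Notch. With only peaks within 20 kb of the start the order changed. Pisd-ps2 was first, Meis2 second and Nfia at rank 4, Fezf2 fell to rank 70, and Lincppara fell to rank 14227 because its domains lie further away.

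Gene lists were read against all genes, of which the top 10% and the top 1% by level were marked off. Epithelial transcription factors stood highest: 30 of 32 had a peak, their median was 700.0, 26 were in the top 10% and 10 in the top 1%. Klf4, which builds the skin barrier, summed to 1144 and 1201 over 10 peaks, Nfib to 1024 and 1221, Grhl2, a Grainyhead factor of epithelial junctions, to 1103 and 1126, and Klf5 to 1057 and 1130.5. Trp63, the master factor of stratified epithelium, had 1077.5 and 1078. It had a peak at an annotated start with only 47.3 and 54.2, while its strongest peak, with 430.2 and 447, was centred in an intron, 2828 bases downstream of another annotated start. At the low end of this list were Elf5 (78.2 and 83.0) and Ovol2 (191 and 241), and Cebpb and Zeb1 were assigned no peak.

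All 19 AP-1 and immediate early genes had a peak, with a median of 546 and 12 in the top 10%. Ier2 led with 1079.98 and 1141, followed by Fosl2 (977 and 1030.4), Fos (846 and 939.7) and Jun (744 and 794), Fos and Jun being the classic AP-1 partners. Fosl1 (123 and 153) and Nr4a1 (177 and 197) were lowest. In NF-kappaB signalling, 23 of 23 had a peak and the median was 342. Its inhibitor Nfkbia had 1034 and 1100.4, Nfkbiz 851 and 958, Nfkb1 782 and 881 and Birc2 805 and 850.2, while Relb (163 and 202) and Cd40 (156 and 210.2) were lowest. Housekeeping genes, for comparison, had a median of 322 (20 of 21 with a peak), from Hspa8 (992 and 1032), Eef1a1 (816 and 887) and Ywhaz (776 and 795) down to Hprt (109 and 102) and Pgk1 (102 and 99.5).

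Thymic epithelial identity genes were spread over the whole range, with a median of 305 (19 of 22 with a peak). Fezf2 and Pax9 were highest, and Eya1, a coactivator and phosphatase needed to form the thymus, had 945 and 1055. Foxn1, the master factor of the thymic epithelium, had 413 and 469, chosen here after its values were seen, while Psmb11, a subunit of the cortical thymoproteasome, had 17.0 and 17.1 and Ackr4 58.0 and 47.1. Aire and Ccl21a were assigned no peak, which says only that no merged peak is nearest to their start. In the Aire-stage list Cd274, which encodes PD-L1, had 1023 and 1037, Tnfrsf11a, the receptor RANK, 610.0 and 684, and Cd80 429.6 and 452. Pdcd1lg2 (159 and 197) and Il2rg (20.8 and 33.0) were lowest.

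Junction and adhesion genes had a median of 459, with 31 of 32 carrying a peak and 18 in the top 10%. Dsp, the desmosome protein desmoplakin, summed to 1042 and 1010.4, Epcam to 884 and 1052, Perp, a desmosome component, to 886 and 921, and Cdh1, E-cadherin, to 789.8 and 827. Dsg3 (103 and 88.9) and Cldn8 (23.3 and 29.4) were lowest. Cornified epithelium genes stood near the all-gene median of 173, at 168: 34 of 45 had a peak, 4 were in the top 10% and 0 in the top 1%, and Flg, Flg2 and 6 small proline-rich or late envelope genes were among the 11 assigned no peak. The highest were Spink5, Tchh, Krt10 (477 and 457) and Asprv1, a protease of skin barrier formation (421 and 409), and the lowest Casp14 (47.9 and 53.0) and Aloxe3 (74.4 and 54.2). Other keratins had a median of 187 (10 of 15 with a peak), with Krt8 at 499 and 537, Krt18 at 409 and 442, Krt17 at 341 and 396 and Krt23 at 334 and 288. Among epithelial proteases and inhibitors Spint2 (667 and 714) and Spint1 (620.1 and 705), inhibitors of membrane serine proteases, were highest, with Spink5 and the protease St14 (448 and 508) next, and Csta1 (40.4 and 41.2) and Klk10 (68.8 and 70.1) were lowest. Krt16 (83.3 and 61.8) and Krt4 (70.7 and 97.7) were the lowest of the other keratins.

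The lists given here for other epithelial and non-epithelial cell types held a few high genes, mostly regulators. Their medians lay under the all-gene median of 173, except the neuroendocrine and microfold medians just above it. Given as means of both replicates, the tuft cell list (median 63.7) was led by the transcription factors Pou2f3 (611) and Sox9 (566), then Dclk1 (332) and Spib (266), with Trpm5 (25.2) and Il25 (12.8) lowest. The neuroendocrine list (median 187) had the factors Isl1 (920.4), Insm1 (450.2) and Foxa2 (243) among its highest genes, with the granule proteins Chga (36.0) and Chgb (28.9) lowest. In the microfold list (median 186) Tnfaip2 (569), Spib, Tnfrsf11b (263) and Sox8 (110.3) were highest, and the chemokines Ccl20 (50.2) and Ccl9 (35.3) lowest. The mucosal list (median 92.8) ran from Ptgs2 (216), Muc13 (169), Ptgs1 (162) and Sult2b1 (149.7) down to Agr2 (46.8) and Upk1b (9.57). Thymocyte genes ran from Bcl11b, Tcf7 (273), Zap70 (99.4) and Themis (76.0) down to Ptprc and Cd2 (21.7). Zbtb46 (317) led the antigen-presenting blood cell list, before Itgax (84.7), Mpeg1 (55.2) and Cd79b (40.9), with Csf1r (19.5) and Cd79a (12.2) lowest. Fibroblast genes ran from Pdgfra (148), Fbn1 (126), Pi16 (62.2) and Col6a1 (57.7) down to Thy1 (10.8) and Dcn (10.1), and endothelial genes from Erg (217), Esam (184), Cldn5 (165) and Kdr (142) down to Emcn (16.045) and Cdh5 (13.04). Among long noncoding RNA and microRNA genes Neat1 (905) and Malat1 (843) were highest, before Mir200b and Mir34a, and Kcnq1ot1 (117) and Mir155 (14.1) lowest.

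**Figure D4:**
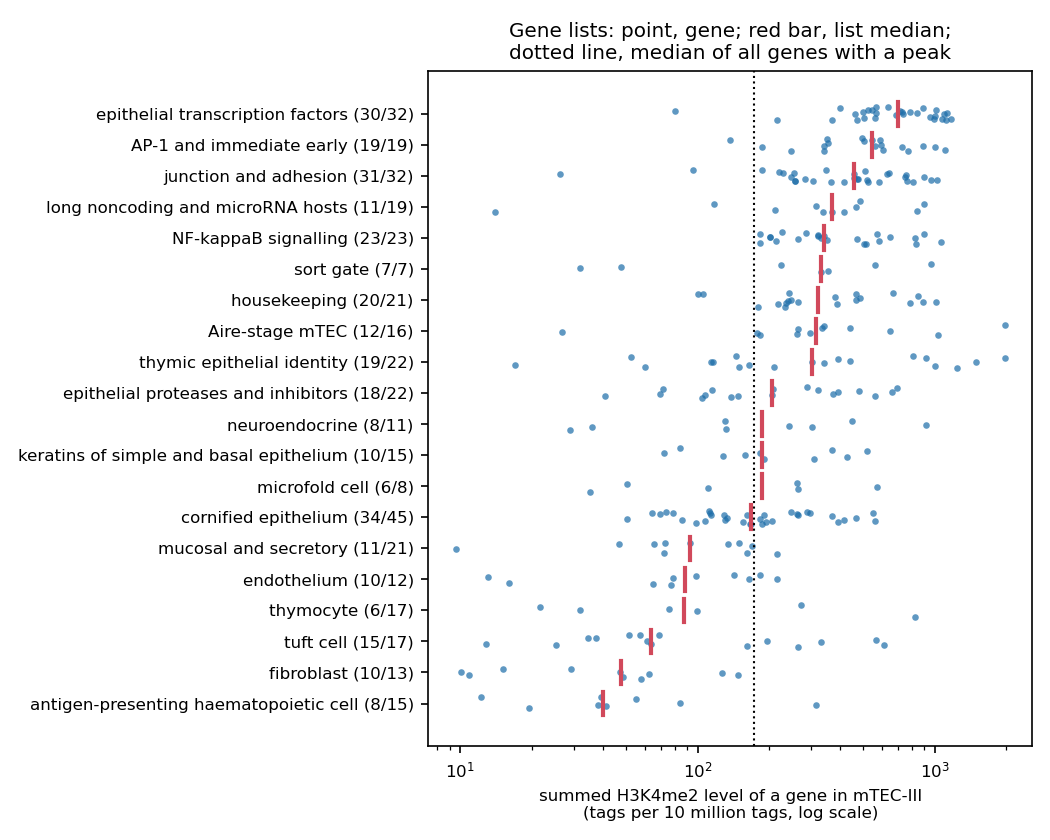
Summed H3K4me2 level per gene in mTEC-III (x axis, mean of both replicates, tags per 10000000 tags, log scale) for 20 gene lists (y axis, with genes that have a peak of genes in the list). Each point is a gene, the red bar the list median and the dotted line the median of all 15739 genes. Epithelial transcription factors (median 700.0) lie to the right and cornified epithelium (168) at the dotted line.

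The other populations serve only to show where mTEC-III differed, by a limma fit over all 8 libraries with the contrast of mTEC-III minus the mean of the other 3. At Benjamini-Hochberg adjusted p under 0.05, 3338 of 29469 merged peaks (11.3%) were higher in mTEC-III and 4173 (14.2%) lower. Without mTEC-III replicate 1 or 2 the higher count was 1158 or 1239 and the lower 1362 or 2625, and without mTEC-I replicate 1 or 2 the higher count was 5941 or 5217 and the lower 6571 or 6710. Of the 100 strongest mTEC-III peaks 43 were called higher, 9 lower and 48 neither. Since they were ranked by the mTEC-III level itself, which favours higher calls, nothing is read from that count. Most of the top was shared: 64 of the 100 were also among the 100 strongest of mTEC-I, 68 of mTEC-II and 52 of mTEC-IV, 43 of all of them, and 18 of none. Outside the top 1000 of every other population lay only Skint3, at ranks 5212, 6768 and 2363.

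Skint4 was at 1000.5 and 1105 in mTEC-III against 205 to 648 in the other 6 libraries, with no overlap. Abhd17c was at 999.9 and 1039 against 362 to 765, and Notch2 at 871 and 893 against 403 to 564. These peaks were picked by their mTEC-III level, so their differences are given as a description, with no test. Pax9 had 1124 on average in mTEC-III and 1135 to 1196 in the others, and Ehf 961 against 683, 776 and 1698. At Meis2, strong as it was, mTEC-III was called lower, at 1137 and 1327 against 1255 to 1908 in the other 6 libraries, with overlap (-0.31 ± 0.067 SE, limma adjusted p = 0.0057). This call ended without mTEC-III replicate 1, the lower of its 2 libraries there. Summed over its 9 peaks, Meis2 had 1805 and 2080.2 against 2265 to 3159, with no overlap (-0.44 ± 0.051 SE, limma adjusted p = 1.4e-05), a call that ended under none of the alternatives run.

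Of 15738 genes tested, 1908 (12.1%) were higher in mTEC-III and 2622 (16.7%) lower, 28.8% in all, with a median log2 difference of 0.013. Without mTEC-III replicate 1 or 2 the higher count was 1120 or 951, without mTEC-I replicate 1 it was 3013, and without mTEC-III replicate 1 the lower count was 1244. In the cornified epithelium list 28 of 34 were higher and 1 lower (2 without mTEC-I replicate 1), with a median of 1.20. This list, like all the other gene lists, was chosen with earlier results of these data known, so the direction of a list is no independent evidence. A gene could also enter the fit through a peak and level of mTEC-III alone, which favours higher calls. Genes that entered through 1 other population alone favour lower calls. Krt10 stood at 477 and 457 against 224 to 316 (0.78 ± 0.082 SE, limma adjusted p = 5.7e-06). The list that is near the median by level thus had the largest median difference of the 20 lists. Of 31 junction and adhesion genes 20 were higher and 1 lower (2 without mTEC-I replicate 1; median 0.37), among them Perp at 886 and 921 against 363 to 741 (0.85 ± 0.064 SE, limma adjusted p = 2.4e-07). Of 30 epithelial transcription factors, the highest list by level, 12 were higher, 4 lower and 14 neither (median 0.12). The count of 12 was 9 and 8 without mTEC-III replicate 1 or 2, and the count of 4 was 1 without replicate 1. Krt10, Perp and the genes named below were chosen by their mTEC-III level within their lists, which favours higher calls.

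Of 19 thymic epithelial identity genes 11 were lower and 2 higher (median -0.34). Without mTEC-III replicate 1 the lower count was 7, and without mTEC-III replicate 2 or either mTEC-II library the higher count was 1. Eya1 had 945 and 1055 in mTEC-III against 1301 to 2151 (-0.75 ± 0.054 SE, limma adjusted p = 1.9e-07), while Fezf2 had 1945 and 1998 against 1148 to 1878 (0.43 ± 0.046 SE, limma adjusted p = 6.0e-06). For Fezf2 mTEC-II lay close under mTEC-III, at 1878 and 1847, while mTEC-I had 1148 and 1219 and mTEC-IV 1466 and 1376. At the second strongest Fezf2 peak of mTEC-III, mTEC-II was the higher one, with 685 on average against 456. Tuft cell genes were lower in 12 of 15 and higher in 0 (median -0.87). Their sum was 2465 to 2628 in mTEC-III, 2600 to 2814 in mTEC-I, 2624 to 2749 in mTEC-II and 9475 to 9816 in mTEC-IV, so the contrast moves with mTEC-IV. Fibroblast genes were lower in 6 of 10 and endothelial genes in 5 of 10, the latter 3 without mTEC-III replicate 1. Of 8 antigen-presenting blood cell genes 2 were higher and 1 lower. The higher ones were the integrins Itgax, at 93.4 and 75.95 in mTEC-III (limma log2 difference 2.29, adjusted p = 8.2e-05), and Itgam, at 43.5 and 34.7 (0.92, adjusted p = 0.028), each with a single peak over 20 kb from its start, and their part in the other results was not tested. Itgam was named after its values were seen, and its call ended without mTEC-IV replicate 1 and without either library of mTEC-II or mTEC-III. Housekeeping genes gave 1 higher, 1 lower and 18 neither, but 5 higher and 4 lower without mTEC-I replicate 1, 4 higher without mTEC-I replicate 2, 0 of either without an mTEC-III library, and 0 lower without mTEC-II replicate 2. AP-1 and immediate early genes, with 3 higher, 3 lower and 13 neither, and NF-kappaB genes, with 3, 3 and 17, had counts near the background shares. Without mTEC-III replicate 1 their lower counts were 1 each, and the higher NF-kappaB count was 1 without mTEC-III replicate 2 or mTEC-II replicate 1. Of 18 epithelial proteases and inhibitors 11 were higher and 1 lower, 6 higher without mTEC-III replicate 2 and 2 lower without mTEC-I replicate 1 or mTEC-IV replicate 2, with Spink5, Klk8, Klk10, Klk13 and Serpinb2 also in the cornified epithelium list, and of 10 other keratins 4 were higher and 3 lower.

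**Figure D5:**
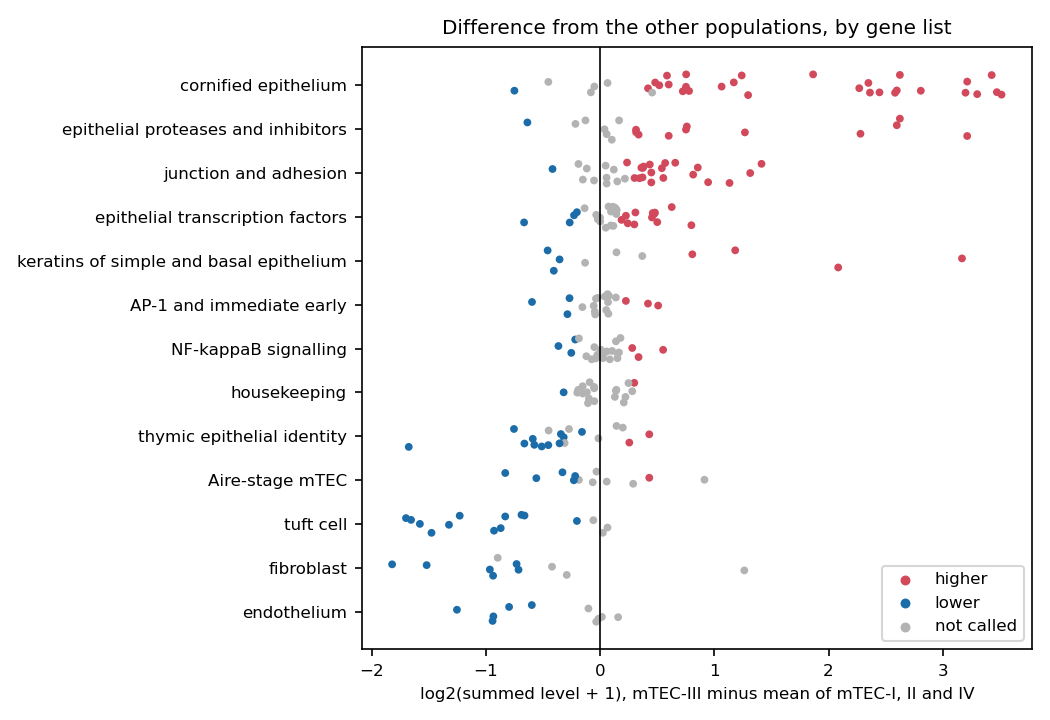
Difference in log2(summed level + 1) between mTEC-III and the mean of the other 3 populations (x axis) for the genes of 13 lists (y axis), coloured by call at limma adjusted p under 0.05. Cornified epithelium genes reach beyond 3 on the log2 scale, and tuft cell genes lie at or below 0 in all but 2 of 15.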

How the data were processed

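H3K4me2 was measured by ChIP-seq in 8 libraries, 2 per population. The authors deposited a merged peak table in which signal is tags per 10000000 tags of a library, per the file headers, with HOMER annotation on mm9. Its values move in steps of 0.5 tags, a step that no label or header explains. They also deposited a peak list per population with tag signal, a peak score, the ratio over control (fold) and a p-value, per the file headers. The submitters' processing notes name bcl2fastq 2.15.0.4 and Picard 1.108. The aligner, the treatment of duplicates and of reads with several matches, and the settings by which replicates were combined stand in no label or header.

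Members and gene lists were chosen with earlier results of these data known. Mitochondrial peaks were left out. Each list peak took the gene of the merged peak it overlaps, and gene values were summed over merged peaks. Differences were fitted with limma 3.58.1 (R 4.3.3, limma-trend, no block) on log2(value + 1) over all 8 libraries, after a filter of at least 10 units in at least 2 libraries, with Benjamini-Hochberg adjusted p under 0.05 over all features. Fold changes on this scale understate changes of low features. Tested on simulated data for this contrast over 29445 peaks, the fit recovered 26% of 1.5-fold, 90% of 2-fold and 100% of 4-fold changes with 0 false calls. In that simulation every peak had the same fixed scatter beyond counting error, and the populations differed in nothing else. For each fold size 50 peaks were changed, none of low level. These figures therefore do not give the recovery or the false calls in the real libraries. All else within mTEC-III is description with no test. Apart from the items left out below, names printed are the 20 strongest and 20 widest list peaks, the 20 genes of highest summed level, the 10 strongest peaks over 10 kb from a start, the 4 highest and 2 lowest genes of each list, and the sort and marker genes. The 20 strongest merged peaks, the dense peaks, the windows and the cluster genes were added after their values were seen. Alternatives were other pseudocounts, filters and scalings, edgeR 4.0.16 on tags recovered from the steps, the replicate block, single libraries left out, and other cutoffs. A few items, among them 1 of the 20 strongest merged peaks, are not reported here.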

Additional observations from a re-analysis of the deposited data

How the results depend on the processing

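Ranking by level per kilobase of width in place of level changed the descriptions of the top 100: the share centred within 1 kb of a start was 74% in place of 24%, the median width of list peaks 2011 in place of 9858 bases, the overlap of strongest and widest 0 in place of 64, and the overlap of the replicates 51 in place of 90. With a distance of 2500 bases the start-site share was 48%, and with either replicate alone 22% to 23%. The median width was 6923 bases over 500 peaks and 11894.5 over the 100 strongest merged peaks, an alternative chosen after seeing the data, like leaving out peaks of over 200 tags per kb, which gave 22%, 9858 bases, 66 and 89.

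With edgeR's quasi-likelihood test 5261 peaks were higher in place of 3338. Leaving out single libraries gave 1158 to 5941 higher and 1362 to 6710 lower peaks, and 951 to 3013 higher and 1244 to 3519 lower genes, lowest without an mTEC-III library and highest without an mTEC-I library. A lone library is then assumed to vary like the other groups. The replicate block gave 3216 higher and 4058 lower peaks and 1858 higher and 2592 lower genes, and the numbers do not pair the libraries, with correlations of same-numbered deviations from -0.013 to 0.016 over 6 pairs. Of 75 named genes with a call 28 lost it under some alternative, and of 54 named peaks 27. With peaks within 20000 bases of the start only, Zfp217 reversed to 0.0046 (limma adjusted p = 0.960) from -0.15 (0.0145). Other scalings moved the median of all features by at most 0.012 on the log2 scale.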
